A study of Rattus norvegicus with 15 samples.

Results

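Fatty acid uptake and mitochondrial beta-oxidation were described from 10 genes in the rat ductus arteriosus and aorta around birth: Cd36, Fabp3, Acsl1, Cpt1b, Cpt2, Acadvl, Acadl, Acadm, Hadha and Hadhb. Every probe set whose platform annotation gave one of these symbols and no other was taken from the Affymetrix rat chips called A, B and C, which gave 23 of 26202 probe sets and 10 of 10969 named genes. Chip A carried 18 of the 23, chip B 2 and chip C 3.

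Long-chain fatty acids enter a cell with the help of the membrane protein CD36, are carried in the cytosol by binding proteins such as FABP3, and are activated to acyl-CoA by ACSL1. CPT1B, the muscle form of the outer carnitine palmitoyltransferase, and CPT2 on the inner membrane pass them into mitochondria, where acyl-CoA dehydrogenases (ACADVL, ACADL and ACADM for very long, long and medium chains) and the trifunctional protein of HADHA and HADHB shorten them to acetyl-CoA. The heart turns to fatty acids as fuel after birth, when milk replaces the glucose supplied across the placenta, and many of these genes are known targets of the nuclear receptors PPARA, PPARD and PPARG.

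The 5 states were newborn ductus (3 h after vaginal delivery), oxygen ductus (fetuses at day 19 of gestation whose dams breathed 100% oxygen for 3 h before caesarean section), fetal ductus (day 19, dams without added oxygen), newborn aorta (3 h) and fetal aorta (day 19). The ductus is the fetal shunt from the pulmonary artery into the aorta that shuts after birth, and the aortic samples held arch and thoracic segments. The labels describe vessels cleaned of adhering tissue in medium gassed with 12.5% oxygen for newborns and 2.5% for fetuses, so the medium differed along with birth. One title, that of the chip A newborn aorta, speaks of 3 h after coitum, but the description of that array names newborn rats after delivery, which was followed. No strain, genotype or number of animals per array was given in the sources used here.

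Each state had 1 array per chip type, 15 arrays in all, so no state had a replicate and no difference between 2 states carries a test or an error from replicates. The deposited arrays had trimmed means of 500.3 to 500.9 intensity units, and between 46.9% and 51.8% of probe sets per array exceeded the floor, which is the pooled median signal of the chip (149.8, 241.7 and 243 units on A, B and C). Signals under the floor were set to it before a ratio was taken, so the fold is a lower bound where one array was under it. The probe set with the highest mean signal stood for its gene, and signals of different probe sets were not compared with each other. Those of marker lists were summed, however, so bright probe sets weigh most in a sum. All 8 smooth muscle markers were above the floor in every state. In whole vessels, fewer cells of a type and less RNA per cell cannot be told apart.

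Hadha and Hadhb, which encode the subunits of one enzyme, start back to back, and the window is printed because both genes share it. RefSeq (build GRCr8) places the 250 bases before the Hadha start at chr6:31907551-31907800, plus strand. The 200 bases in capitals also lie in the 250 bases before the Hadhb start, chr6:31907501-31907750, minus strand.
Hadha: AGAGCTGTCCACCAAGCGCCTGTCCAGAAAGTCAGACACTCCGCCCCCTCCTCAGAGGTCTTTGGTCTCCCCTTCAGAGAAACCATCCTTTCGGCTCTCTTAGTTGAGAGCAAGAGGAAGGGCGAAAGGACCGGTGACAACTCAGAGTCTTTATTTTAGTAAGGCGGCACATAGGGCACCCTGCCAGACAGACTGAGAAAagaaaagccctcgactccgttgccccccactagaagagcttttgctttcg

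The upstream windows of 8 of the 10 genes were matched in the RefSeq table (not those of Cpt1b and Acadl) and searched on both strands for AGGTCA, the core motif that PPAR and RXR receptors recognise. They were also searched for 2 such cores in a row with 1 base between them, allowing up to 2 mismatches in all. The core was in 1 of the 8 windows, that of Acadvl, and in 14.1% of all 33469 windows. The repeat was in the same 1 window and in 3.15% of all windows, or 0.368% with at most 1 mismatch. It is printed because it is the one match among the 8, and it lies 17 to 5 bases before the Acadvl start (window chr10:55236706-55236955, minus strand), with 1 mismatch.
Acadvl: AGGTCAGTGGTCA
No match in the other 7 windows says only that these letters were not in these bases.

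The newborn aorta had the highest signal of the 5 states for 8 of the 10 genes. Among the 8 was Cd36, which was above the floor in no other state. Over all 8027 genes above the floor in at least 1 state, 19.2% were highest in the newborn aorta. The exceptions were Fabp3, highest in the oxygen ductus, and Hadha, highest in the fetal ductus. Of the 9 genes with a single lowest state, 4 were lowest in the newborn ductus (Cpt2, Acadvl, Hadha and Hadhb), 4 in the fetal aorta (Fabp3, Acsl1, Acadl and Acadm) and 1 in the oxygen ductus (Cpt1b). Over all genes with a single lowest state, 24.8% were lowest in the newborn ductus and 16.6% in the fetal aorta.

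**Figure D1:**
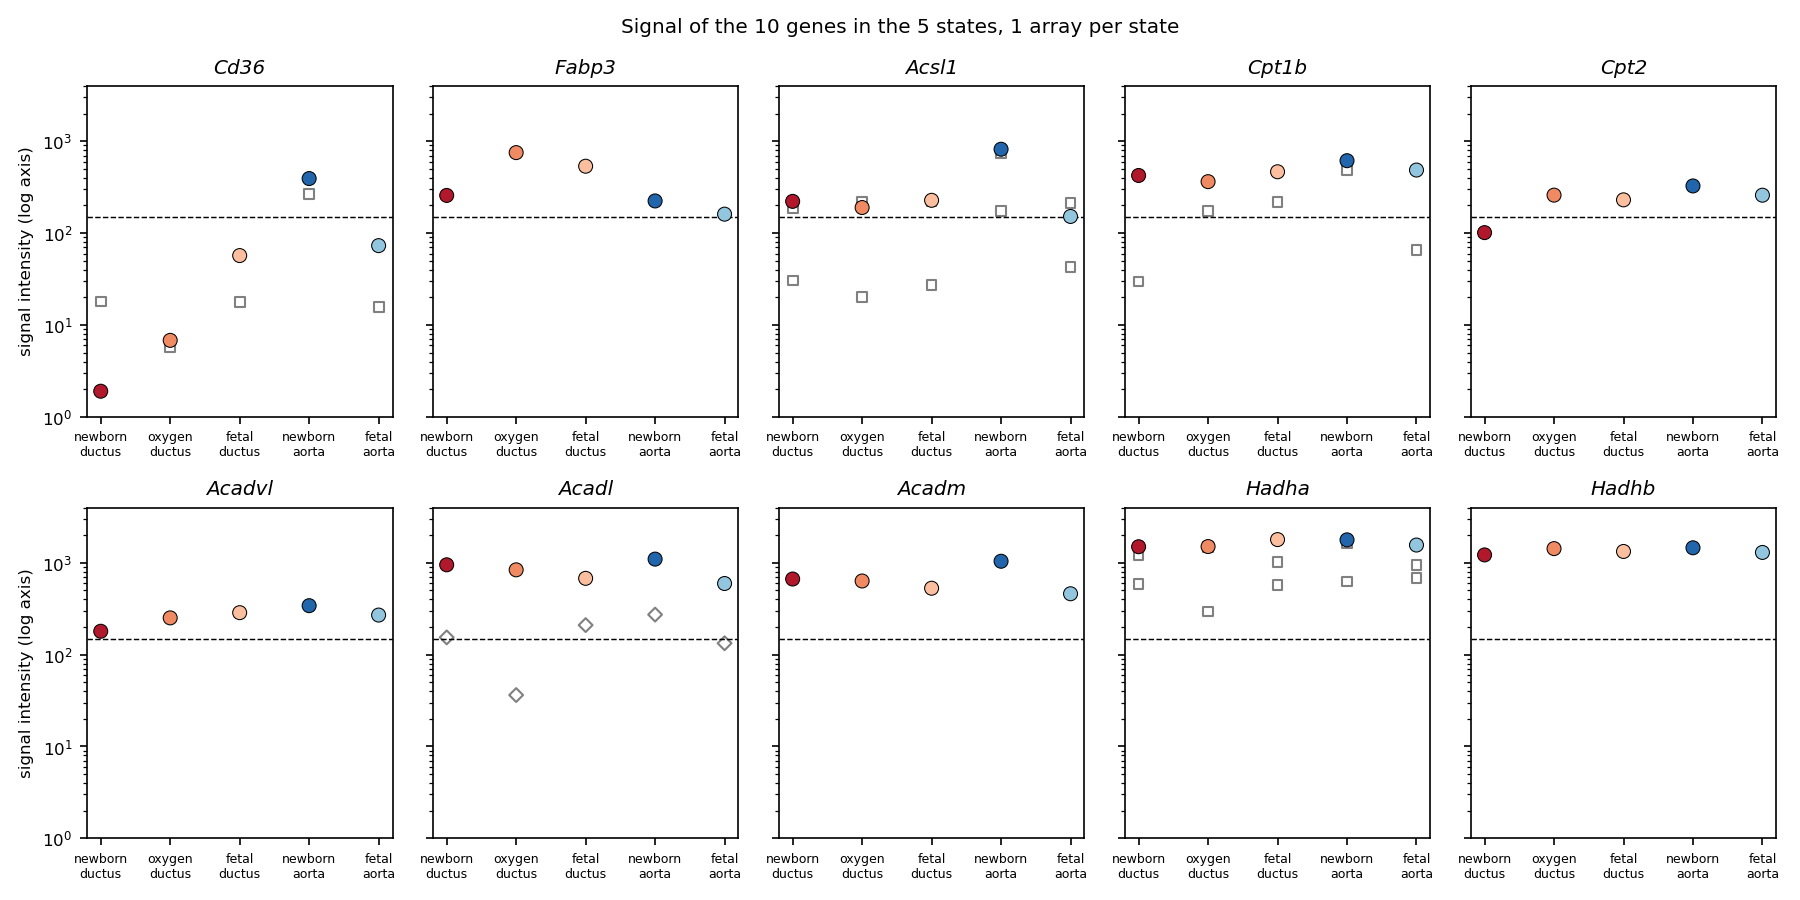
Signal intensity (log axis) of each gene in the 5 states, 1 array per state. Filled circles are the brightest probe set, open squares other probe sets of chip A and the open diamond one of chip B that exceeded the floor in at least 1 state, and the dashed line is the floor of chip A (149.8). The newborn aorta is the highest filled circle in 8 of the 10 panels, while Fabp3 peaks in the oxygen ductus and Cd36 passes the floor only in the newborn aorta.

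The 23 probe sets did not all carry signal. Above the floor in every state were 11, in 1 to 4 states 6, and in none 6. Through its brightest probe set, 8 of the 10 genes were above the floor in every state, the exceptions being Cpt2 (below it in the newborn ductus) and Cd36.

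Cd36, the fatty acid translocase of the plasma membrane, had 1.9 units in newborn ductus, 6.8 in oxygen ductus, 57 in fetal ductus, 393 in newborn aorta and 73.1 in fetal aorta. Only the newborn aorta was above the floor. It was at least 2.62-fold higher than fetal aorta, and the newborn ductus was at least 2.62-fold lower than newborn aorta. The other Cd36 probe set had 18, 5.8, 17.7, 264.7 and 15.7 units in newborn, oxygen and fetal ductus and newborn and fetal aorta, again above the floor only in newborn aorta.

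Another 6 probe sets were assigned to Cd36 together with Cd36l1 and were therefore not counted among the 23. Above the floor in at least 1 state were 5 of them, all on chip A. These 5 had signals of 184.2 to 454.8 in newborn ductus, 21.9 to 220.6 in oxygen ductus, 134.3 to 295 in fetal ductus, 776.6 to 1920.2 in newborn aorta and 200.9 to 653.7 in fetal aorta. The newborn aorta was the highest state on each of them, 2.94-fold to 6.56-fold above fetal aorta, and the newborn ductus was 4.22-fold to 4.93-fold below newborn aorta. The probe sets of both kinds thus ranked the newborn aorta first, with no test.

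**Figure D2:**
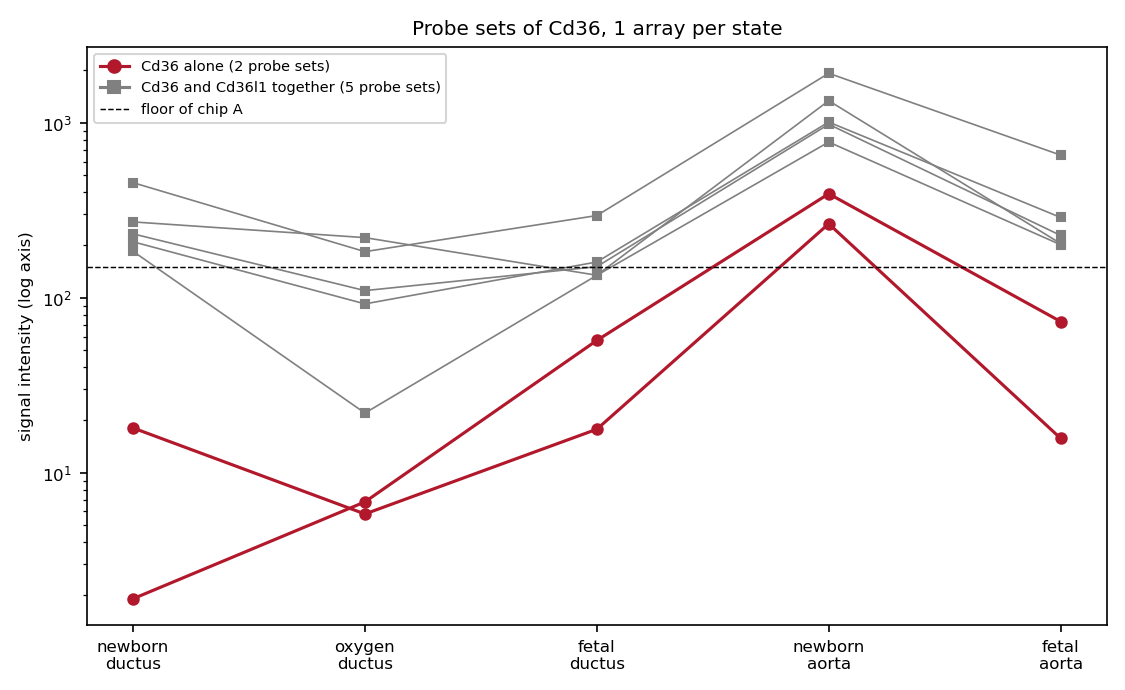
Signal intensity (log axis) of the 2 probe sets of Cd36 alone and of the 5 assigned to Cd36 and Cd36l1 together, 1 array per state, with the floor of chip A dashed. All 7 are highest in newborn aorta, and the 2 of Cd36 alone lie under the floor in the other states.

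Fabp3, the heart-type fatty acid binding protein, had 257.4 units in newborn ductus, 752.9 in oxygen ductus, 535.3 in fetal ductus, 224.1 in newborn aorta and 160.9 in fetal aorta. The ductus was highest in the 2 fetal states, with and without oxygen, and both aortas were low, the fetal one close to the floor. The fetal ductus was 3.33-fold above fetal aorta. The newborn ductus was 2.08-fold below fetal ductus and 2.93-fold below oxygen ductus, while the newborn aorta was 1.39-fold above fetal aorta. Fabp3 was the one gene of the 10 that was at least 1.5-fold higher in ductus than in aorta in either stage.

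Acsl1, the acyl-CoA synthetase of the outer mitochondrial membrane and endoplasmic reticulum, had 221.8 units in newborn ductus, 190 in oxygen ductus, 227.7 in fetal ductus, 819.5 in newborn aorta and 151.9 in fetal aorta. The newborn aorta stood above the other 4 states, which lay close together and near the floor. It was 5.4-fold above fetal aorta (log2 2.43), and the newborn ductus was 3.69-fold below newborn aorta. A further probe set above the floor throughout had 189.1, 219, 220.7, 741.6 and 214.4 units in the same order of states. The rank of newborn aorta was thus shared, but the lowest state there was newborn ductus, not fetal aorta. That second reading gave log2 1.79 for newborn over fetal aorta. Of the 3 other Acsl1 probe sets, 1 passed the floor only in newborn aorta (173.4 units) and 2 in no state.

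Cpt1b, which passes acyl groups to carnitine, was read differently by its 2 probe sets. The brighter had 424.5 units in newborn ductus, 363.6 in oxygen ductus, 465.9 in fetal ductus, 614.7 in newborn aorta and 486.3 in fetal aorta. The dimmer had 29.7 in newborn ductus, 175.5 in oxygen ductus, 219.8 in fetal ductus, 490.2 in newborn aorta and 65.6 in fetal aorta. Both were highest in newborn aorta, but the newborn ductus and fetal aorta were under the floor on the dimmer one only. The newborn ductus was 1.45-fold below newborn aorta on the brighter probe set (log2 -0.53) and at least 3.27-fold below it on the dimmer.

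Cpt2, which turns acylcarnitine back to acyl-CoA inside the mitochondrion, had 101.3 units in newborn ductus, 259.3 in oxygen ductus, 230.4 in fetal ductus, 326.4 in newborn aorta and 258.9 in fetal aorta. The newborn ductus, under the floor, was the low state. It was at least 2.18-fold below newborn aorta, at least 1.54-fold below fetal ductus and at least 1.73-fold below oxygen ductus. With the floor at the 60th percentile the first and last of these were log2 -0.45 and -0.12, under 1.5-fold. The second Cpt2 probe set was above the floor in no state.

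Acadvl, the dehydrogenase of very long chains, had 179.7 units in newborn ductus, 251.3 in oxygen ductus, 286.4 in fetal ductus, 341.2 in newborn aorta and 269.7 in fetal aorta. As with Cpt2 the newborn ductus was lowest, 1.9-fold below newborn aorta and 1.59-fold below fetal ductus. Both were under 1.5-fold (log2 -0.52 and -0.26) with the floor at the 60th percentile of the chip.

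Acadl, the long-chain dehydrogenase, had 950.7 units in newborn ductus, 838.1 in oxygen ductus, 677.2 in fetal ductus, 1096.8 in newborn aorta and 594.9 in fetal aorta. Both newborn vessels lay above their fetal counterparts, by 1.4-fold in ductus and 1.84-fold in aorta. A second probe set on chip B was above its floor only in newborn aorta (272.9 units), at least 1.13-fold over fetal aorta.

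Acadm, the medium-chain dehydrogenase, had 665.7 units in newborn ductus, 633.8 in oxygen ductus, 528.5 in fetal ductus, 1039.8 in newborn aorta and 460.1 in fetal aorta. It followed the order of Acadl, with both newborn vessels above fetal ones, by 1.26-fold in ductus and 2.26-fold in aorta. The newborn ductus was 1.56-fold below newborn aorta.

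Hadha, the subunit with the hydratase and hydroxyacyl-CoA dehydrogenase activities, had 1495.4 units in newborn ductus, 1502.8 in oxygen ductus, 1789.3 in fetal ductus, 1776.9 in newborn aorta and 1560.4 in fetal aorta on its brightest probe set. The 5 states spanned 1.2-fold. Its other 2 probe sets gave 1216.7, 1496.7, 1021.4, 1629.4 and 941.8 units, and 587.1, 294.2, 572.6, 625.1 and 685.3 units, in the same order of states. The 3 disagreed on oxygen: the log2 ratio of oxygen over fetal ductus was -0.25, 0.55 and -0.96. No direction with oxygen is given for Hadha. On the last probe set the newborn aorta (625.1) was below fetal aorta (685.3), unlike on the others. The highest and lowest states also differed between the probe sets.

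Hadhb, the thiolase subunit, had 1218 units in newborn ductus, 1426.9 in oxygen ductus, 1328.6 in fetal ductus, 1456.5 in newborn aorta and 1296.3 in fetal aorta. It too spanned 1.2-fold over the 5 states.

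The scatter behind a log2 ratio was estimated from the vessel-by-stage contrast over the probe sets of a chip, by signal bin, since there were no replicates. Its SD was 0.22 to 0.35 with a median of 0.32, and it includes any true difference of birth effects between vessels. With the states of each gene put in order of level, 10 of the 40 gaps between neighbouring states exceeded 1 SD of the gene's signal bin. The newborn aorta was highest by more than 1 SD for Cd36, Acsl1, Cpt1b and Acadm, and the newborn ductus lowest for Cpt2 and Acadvl. For Cpt1b the gap was log2 0.34 beside an SD of 0.32. The gaps of Cd36 and Cpt2 had the floor as their lower value. A gap beyond 1 SD is no test, and its share over all genes was not computed. Fabp3 had 3 such gaps: oxygen ductus over fetal ductus, fetal ductus over newborn ductus and newborn aorta over fetal aorta. Acadl had 1, with newborn aorta, newborn ductus and oxygen ductus above fetal ductus and fetal aorta. The gaps of Hadha and Hadhb were all within 1 SD, so the order of their states is not settled.

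Comparisons of 2 states were read as at least 1.5-fold or at least 2-fold apart. They share arrays, so each is given beside the others and none supports another.

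The newborn vessels were compared first. Newborn ductus over newborn aorta had 0 genes at least 1.5-fold higher and 5 lower of 10 measured (Cd36, Acsl1, Cpt2, Acadvl and Acadm), against 6.16% and 5.98% of all genes measured in that pair. The median log2 ratio was -0.59 for the 10 and -0.01 for all genes. Cd36 and Cpt2 entered this pair only through newborn aorta, so their direction in these counts was set by the floor. At 2-fold, 0 were higher and 3 lower (Cd36, Acsl1 and Cpt2), against 1.25% and 1.18% of all genes. Fetal ductus over fetal aorta had 1 gene higher (Fabp3) and 0 lower of 9 measured, against 4.20% and 5.10% of all genes, with medians of 0.19 and -0.02. At 2-fold the counts were again 1 and 0, against 0.959% of all genes each way. Acsl1 stood just under the threshold, with 1.5-fold as rounded (log2 0.58).

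In the aorta the newborn signals were the higher ones. Newborn over fetal aorta had 4 genes higher (Acsl1, Cd36, Acadm and Acadl) and 0 lower of 10 measured, against 7.57% and 11.0% of all genes. On the brightest probe sets the ratio was above 0 for all 10, and for 3437 of all 7676 genes. On the dimmest Hadha probe set the newborn aorta was below fetal aorta. Here too Cd36 entered only through newborn aorta, so its direction was set by the floor. The median log2 ratio was 0.41 for the 10 and -0.05 for all genes. At 2-fold, 3 were higher (Acsl1, Cd36 and Acadm) and 0 lower, against 2.12% and 2.71%. Newborn over fetal ductus had 0 genes higher and 3 lower of 9 measured (Fabp3, Acadvl and Cpt2), against 7.56% and 9.59%, with medians of -0.13 and -0.05. Cpt2 entered this pair only through fetal ductus, so its direction was set by the floor. At 2-fold, 0 were higher and 1 lower (Fabp3), against 1.72% and 1.79%.

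**Figure D3:**
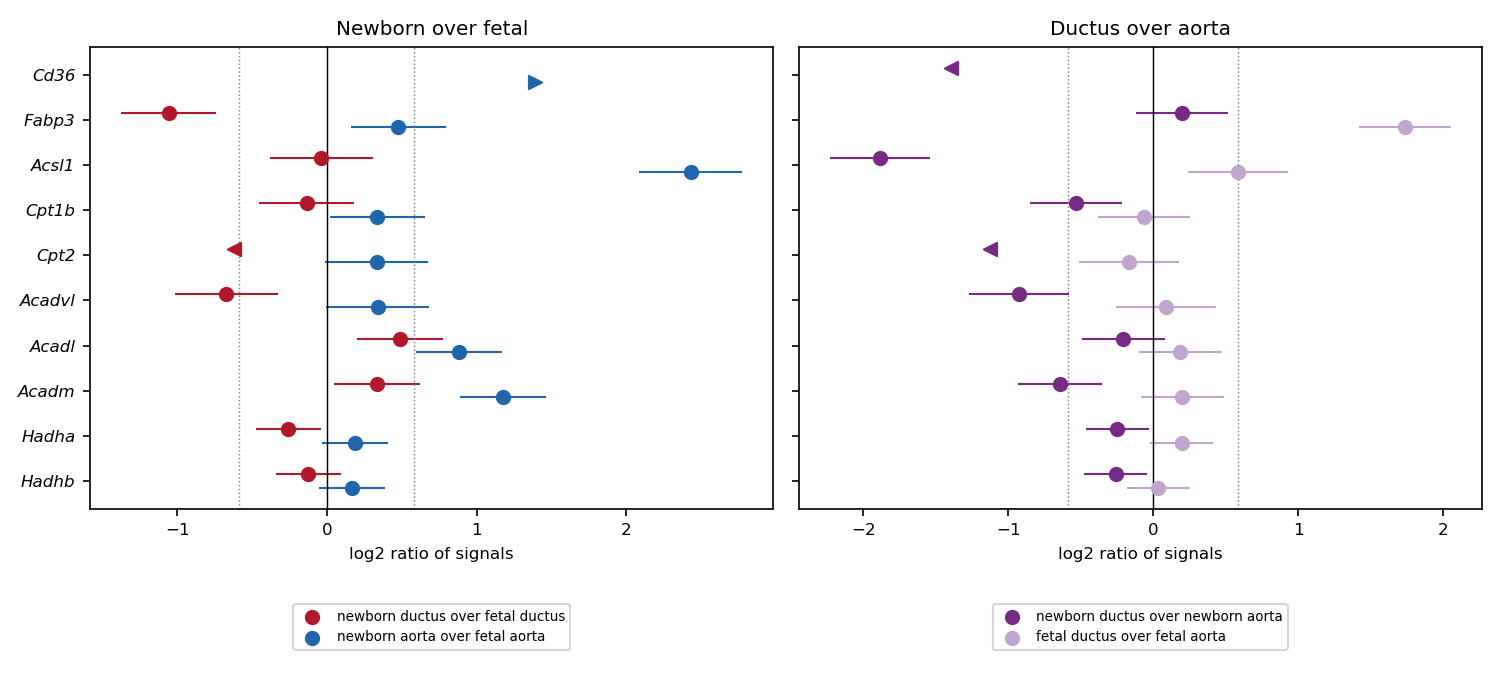
Log2 ratio of signals for each gene, newborn over fetal (left) and ductus over aorta (right), on the brightest probe set. Whiskers are 1 SD of the scatter estimated from the vessel-by-stage contrast, triangles are lower bounds with 1 side at the floor, dotted lines mark 1.5-fold, and a missing point was under the floor on both arrays. All 10 newborn over fetal aorta points lie above 0, and 9 of 10 newborn ductus over newborn aorta points lie below 0. Cd36 was above the floor only in newborn aorta, so the direction of its points was set by the floor. Cpt2 was under the floor in newborn ductus, so the direction of its newborn ductus points was set likewise.

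At their brightest probe sets the oxygen ductus lay within 1.5-fold of fetal ductus. Oxygen over fetal ductus had 0 higher and 0 lower of 9 measured, against 4.44% and 5.38% of all genes, and medians of 0.10 and 0.04. At 2-fold the counts were 0 and 0, against 0.469% and 0.858%. The largest ratio was that of Fabp3, 1.41-fold. Newborn over oxygen ductus, which sets ordinary birth against oxygen before birth, had 0 higher and 2 lower of 9 (Fabp3 and Cpt2), against 10.5% and 14.5%, and medians of -0.01 and -0.09. Cpt2 entered this pair only through oxygen ductus, so its direction was set by the floor. At 2-fold, 0 were higher and 1 lower (Fabp3), against 2.59% and 3.24%. The share of lower genes lay near that of all genes at 1.5-fold.

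The arrays of both vessels and both stages, without the oxygen ductus, were also fitted together. An additive model of vessel and stage was fitted per chip with limma to the 13810 probe sets that exceeded the floor on 2 or more arrays, with 1 residual degree of freedom, so that the interaction served as error. Of all probe sets, 0.0145% were called higher and 0.0217% lower in ductus over aorta, and 0.956% higher and 0.731% lower in newborn over fetal, at a Benjamini-Hochberg adjusted p under 0.05. Of the 10 genes, 9 were tested (13 probe sets, Cd36 not among them), and 0 were called for either effect. On their brightest probe sets, 2 of the 9 had an unadjusted p under 0.05 for vessel (Fabp3 and Cpt2) and 3 for birth (Acadl, Acadm and Acsl1), against 7.75% and 18.6% of all probe sets tested. The lowest adjusted p in the limma fit were 0.487 for vessel (Fabp3, log2 0.97, SE 0.34) and 0.122 for birth (Acadl, log2 0.69, SE 0.21). Acadm had a birth effect of log2 0.75 (SE 0.25, limma adjusted p 0.149) and Acsl1 of 1.20 (SE 0.49, limma adjusted p 0.233). In Acsl1 the additive fit averages over birth ratios of -0.04 in ductus and 2.43 in aorta.

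Markers of other cell types are given beside these values. The 14 fat cell markers on the arrays, of 16 listed, summed to 6851 units in newborn ductus, 4511 in oxygen ductus, 5374 in fetal ductus, 34351 in newborn aorta and 5951 in fetal aorta. Above the floor were 7, 6, 6, 13 and 6 of them in that order of states. Adipoq, the fat cell hormone adiponectin, had 12.7, 11.6, 16.3, 1074.8 and 13.9 units, and Ucp1, the uncoupling protein of brown fat, had 83.8, 47.1, 26.8, 876.3 and 81.8 units. Car3, carbonic anhydrase 3, made up much of the newborn aorta sum, with 14774 units there and 592.1 in fetal aorta. Lep and Lipe on the same list were not highest in newborn aorta: Lep had 3116 units in newborn ductus and 2468.4 in newborn aorta, and Lipe had 997.8 in fetal ductus and 849 in newborn aorta. Adipoq and Ucp1 were above the floor only in newborn aorta, the state where Cd36, Acsl1 and Acadm were highest, and their part in those values was not tested.

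The 15 heart muscle markers summed to 16927 units in newborn ductus, 32905 in oxygen ductus, 35455 in fetal ductus, 21272 in newborn aorta and 16363 in fetal aorta. The sums were highest in the 2 fetal ductus states, where Fabp3 was highest. Tnnc1 and Actc1 made up much of these sums, with 9652.2 and 9619.9 units in fetal ductus. In oxygen over fetal ductus 4 of 13 measured markers had a ratio above 0 and 9 below. Of all 7457 genes, 4104 and 3349 did. Fabp3 was 1.41-fold higher there, and among the 4 markers were Nppa (2.05-fold higher) and Tnnc1 (1.26-fold). At 1.5-fold, 11 of 13 markers were higher and 0 lower in fetal ductus over fetal aorta, against 4.20% and 5.10% of all genes. Fabp3 was at log2 1.73 there. In newborn over fetal ductus 0 of 13 were higher and 9 lower (7.56% and 9.59%), with Fabp3 at -1.06. In newborn over oxygen ductus 0 of 12 were higher and 9 lower (10.5% and 14.5%), with Fabp3 at -1.55. In newborn over fetal aorta 3 of 9 were higher and 0 lower (7.57% and 11.0%), with Fabp3 at 0.48. In newborn ductus over newborn aorta 1 of 10 was at least 1.5-fold higher and 6 lower, against 6.16% and 5.98% of all genes. The higher one was Nppa, at least 2.9-fold, and Fabp3 was at log2 0.20. Nppa had 434.8, 1293, 630.2, 15.5 and 9.7 units in newborn, oxygen and fetal ductus and newborn and fetal aorta. Above the floor were 10, 12, 13, 9 and 9 of the 15 in that order of states. Myl3, a ventricular myosin light chain, had 23.8, 391.8, 503.6, 13.8 and 104.4 units, and the myoglobin gene Mb was under the floor in every state. The part of heart muscle in the Fabp3 values was not tested.

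Smooth muscle markers, those of the vessels' main cell type, had their highest sum in another state than most of the 10 genes. The 8 summed to 105927 units in newborn ductus, 74582 in oxygen ductus, 69011 in fetal ductus, 62976 in newborn aorta and 45514 in fetal aorta, so the newborn ductus was highest. In newborn ductus over newborn aorta 6 of 8 were at least 1.5-fold higher and 0 lower (median log2 0.88), and Actg2, enteric smooth muscle actin, had 16697 units in newborn ductus and 6892 in newborn aorta. In newborn over fetal ductus 6 of 8 were higher, in newborn over fetal aorta 3 of 8, in fetal ductus over fetal aorta 6 of 8, and in oxygen over fetal and newborn over oxygen ductus 2 of 8 each, with 0 lower throughout. Of the endothelial markers, 5 of 8 measured were higher and 0 lower in newborn over fetal ductus (median log2 0.61), and 4 of 9 were higher and 1 lower in newborn over fetal aorta (0.50). In newborn ductus over newborn aorta 2 of 9 were higher and 1 lower. Beside these marker counts, the shares of all genes higher and lower were 6.16% and 5.98% in newborn ductus over newborn aorta. They were 7.56% and 9.59% in newborn over fetal ductus and 7.57% and 11.0% in newborn over fetal aorta. Fetal ductus over fetal aorta had 4.20% and 5.10%, oxygen over fetal ductus 4.44% and 5.38%, and newborn over oxygen ductus 10.5% and 14.5%. The part of either cell type in the values of the 10 genes was not tested.

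Of the 22 respiratory chain genes on the arrays (29 listed), 21 were measured, and shares of all genes at 1.5-fold stand beside their counts. In newborn ductus over newborn aorta 0 were higher and 7 lower (6.16% and 5.98% of all genes), and in newborn over fetal aorta 6 were higher and 0 lower (7.57% and 11.0%). In newborn over oxygen ductus 1 was higher and 9 lower (10.5% and 14.5%), in newborn over fetal ductus 0 and 3 (7.56% and 9.59%), in oxygen over fetal ductus 1 and 1 (4.44% and 5.38%), and in fetal ductus over fetal aorta 0 and 0 (4.20% and 5.10%).

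**Figure D4:**
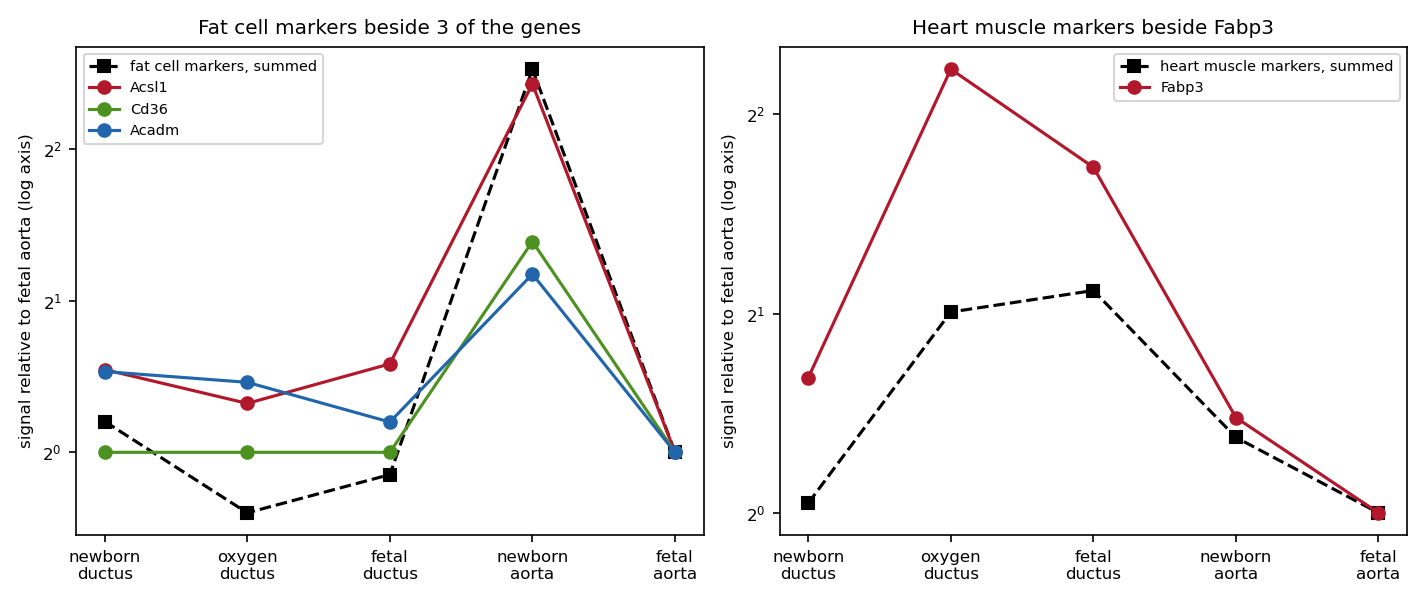
Signal relative to fetal aorta (log axis) of the summed fat cell markers with Acsl1, Cd36 and Acadm (left) and of the summed heart muscle markers with Fabp3 (right), 1 array per state. Signals of the 4 genes under the floor were set to it, which holds Cd36 at 1 in all states but newborn aorta. The fat cell sum peaks in newborn aorta along with the 3 genes, and the heart muscle sum is highest in fetal and oxygen ductus.

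Beyond the 10, 73 further genes of the pathway were listed by role, and 68 were on the arrays. In newborn ductus over newborn aorta, 3 of 49 measured were at least 1.5-fold higher and 7 lower, against 6.16% and 5.98% of all genes. In newborn over fetal aorta, 8 of 50 were higher and 3 lower, against 7.57% and 11.0%. In newborn over fetal ductus, 8 of 48 were higher and 4 lower, against 7.56% and 9.59%. The counts were 1 and 2 of 47 in fetal ductus over fetal aorta (4.20% and 5.10% of all genes), 3 and 4 of 47 in oxygen over fetal ductus (4.44% and 5.38%) and 10 and 7 of 48 in newborn over oxygen ductus (10.5% and 14.5%). Several of these lay near the share of all genes, such as the lower genes of newborn over fetal and newborn over oxygen ductus.

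In uptake and binding, Lpl, the lipase that frees fatty acids from circulating triglyceride, had 366.9 units in newborn ductus, 193.9 in oxygen ductus, 192.1 in fetal ductus, 1223.1 in newborn aorta and 276.6 in fetal aorta. Fabp4, the fat cell binding protein, had 291.9 in newborn ductus, 159.4 in oxygen ductus, 111.3 in fetal ductus, 3489 in newborn aorta and 123.4 in fetal aorta. Both were highest in newborn aorta and next highest in newborn ductus. The list as a whole was mixed. In newborn over fetal aorta 3 of 12 measured were higher and 1 lower, against 7.57% and 11.0% of all genes. Of the 12 ratios 6 were above 0 and 6 below. Fabp5 was highest in fetal aorta (4898.7, with 3835.9 in newborn aorta). Fabp6 was highest in newborn ductus (5232.8, with 3213.3 in newborn aorta). Fabp4 also stood on the fat cell marker list, as did the receptor gene Pparg, which had 110 units in newborn ductus, 15 in oxygen ductus, 121.9 in fetal ductus, 1343.1 in newborn aorta and 145.5 in fetal aorta.

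Genes of the carnitine shuttle and its control came next, with 6.16% and 5.98% of all genes as background. In newborn ductus over newborn aorta 1 of 4 measured was higher and 0 lower. It was Cpt1a, the liver form of the outer transferase, which had 824.7 units in newborn ductus, 1093.2 in oxygen ductus, 842 in fetal ductus, 469.9 in newborn aorta and 575.2 in fetal aorta, so it was lowest where Cpt1b was highest. The newborn ductus was 1.76-fold above newborn aorta (log2 0.81). Slc25a20, the carrier of acylcarnitine across the inner membrane, was lower by log2 -0.54 in that pair, under 1.5-fold, and Crat, carnitine acetyltransferase, was at 0.16. Acaca, whose product malonyl-CoA inhibits CPT1, had 728.5 in newborn ductus, 1416.5 in oxygen ductus, 1290.8 in fetal ductus, 784.1 in newborn aorta and 1373.5 in fetal aorta. Both newborn vessels were below the fetal ones, by log2 -0.83 in ductus and -0.81 in aorta. Mlycd, which breaks malonyl-CoA down, had 74 in newborn ductus, 586.2 in oxygen ductus, 588.6 in fetal ductus, 189.3 in newborn aorta and 352.1 in fetal aorta, under its floor in both newborn vessels. In newborn over fetal aorta 0 of 5 measured were higher and 1 lower (Acaca), against 7.57% and 11.0% of all genes. All 5 ratios were below 0 there, as were 4238 of all 7676 genes. Mlycd entered that pair only through fetal aorta, so its direction was set by the floor.

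Among the other matrix enzymes and electron carriers, all 13 measured had a ratio below 0 in newborn ductus over newborn aorta. Over all genes 3837 of 7528 did. At least 1.5-fold lower were 3 of the 13, against 5.98% of all genes. These were Etfb (log2 -1.51), a subunit of the flavoprotein that takes electrons from the acyl-CoA dehydrogenases, the thiolase gene Acaa2 (-0.94) and Etfdh (-0.61), which hands those electrons to ubiquinone. In newborn over fetal aorta 4 of 13 were higher and 0 lower, against 7.57% and 11.0% of all genes. The 4 were Etfb (1.02), Etfdh (0.92), Acaa2 (0.69) and Acadsb (0.64), a dehydrogenase of short branched chains. In newborn over fetal ductus 0 were higher and 0 lower of 13, against 7.56% and 9.59%. Of 5 peroxisomal genes measured, 0 were 1.5-fold apart between the newborn vessels, the fetal vessels or newborn and fetal aorta. The shares of all genes in these pairs were 4.20% to 11.0% each way. In the ductus, the catalase gene Cat was 1.7-fold higher in newborn over fetal and 1.58-fold higher in oxygen over fetal. Abcd3, a transporter of the peroxisomal membrane, was 1.57-fold lower in oxygen over fetal and 1.75-fold higher in newborn over oxygen ductus. Pdk4, the kinase that restrains pyruvate oxidation, had 768.5 units in newborn ductus, 156.9 in oxygen ductus, 169.1 in fetal ductus, 343 in newborn aorta and 161.4 in fetal aorta, high in newborn ductus and under its floor in the 3 fetal states.

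For Acsl1, Cpt2, Acadm and Fabp3, which spanned at least 2-fold over the states, the 3 genes with the closest centred log2 profile were found by Euclidean distance over the 5 states. The candidates were 2190 other genes read on chip A and above its floor in at least 3 states. Cd36 also spanned 2-fold, but it was under the floor in 4 of 5 states, so its profile is the floor and 1 signal, and no likeness is given. Nearest to Cpt2 was Cox5b, a respiratory chain subunit, with 1490.8 units in newborn ductus, 2869 in oxygen ductus, 2426.2 in fetal ductus, 3076.9 in newborn aorta and 2607.8 in fetal aorta (distance 0.17). Then came Stx1a (0.22) and Aco1 (0.25). Cpt2 was under the floor in newborn ductus, so the low point of its profile is the floor. These distances therefore depend on where the floor was set. Nearest to Acadm was Mpc1, a subunit of the mitochondrial pyruvate carrier, with 3555.4 in newborn ductus, 3019.8 in oxygen ductus, 2750.1 in fetal ductus, 4649.3 in newborn aorta and 2587.6 in fetal aorta (distance 0.27), followed by Wfdc1 (0.30) and Pdcd10 (0.30). Nearest to Acsl1 were Mgst1 (0.60), Col15a1 (0.62) and Hspa9 (0.65), and to Fabp3 Spink8 (0.58), Fzd1 (0.68) and Il15 (0.77). With 5 states of 1 array each, such likeness is a description of these arrays.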

How the data were processed

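RNA of 5 states was hybridised to 3 chip types, 1 array each, and groups came from titles and descriptions. The deposited values were linear signal intensities, already scaled to a common trimmed mean (2% at each end) by the authors, as the values show. Per the submitters' processing notes MAS5 was used for 4 of the 5 chip A arrays. For the fetal aorta array of chip A and for chips B and C, the software was not given in the sources used here. The number of arrays limits the precision.

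Control probe sets were left out. Genes were named from the platform annotation: 18178 probe sets had 1 gene, 391 several and 7633 none, and 18122 of the 18178 were found by gene number in the RefSeq table with 0 symbols changed. Signals were floored at the pooled median of the chip, then log2 was taken. A probe set counted as measured in a pair if either array exceeded the floor, and thresholds were 1.5-fold and 2-fold, with no test. Vessel and stage effects were fitted with limma 3.58.1 (R 4.3.3) with Benjamini-Hochberg adjusted p-values per chip, and the fit was tested on simulated data. Tables were computed with Python 3.11.15 and pandas 2.3.3. Alternatives were other floors, the mean over probe sets, quantile normalization, median centring, an intensity trend and no filter. Named were all 10 genes, up to 4 genes with the largest ratio of each other list and comparison, the 3 nearest profiles and the markers set beside a gene. The members and lists were chosen with earlier results of these data known. Cpt1a, Mlycd, Pdk4 and Acaca were described in every state because of their ratio in at least 1 comparison.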

Additional observations from a re-analysis of the deposited data

Results flagged for a closer look

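Fabp3 was singled out because its birth ratios ran opposite ways in the vessels. Newborn over fetal was log2 -1.06 in ductus and 0.48 in aorta, a difference of -1.53, where the scatter estimated for such a difference had an SD of 0.45. This difference was not tested, since each state had 1 array. The fetal aorta signal of Fabp3 lay close to the floor. With the floor at the 60th percentile both aortas were under it, so the aortic ratio had no value. Fetal ductus over fetal aorta was then log2 1.17 for Fabp3, against 1.73.

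Acsl1 was singled out because ductus over aorta was log2 -1.89 in newborns and 0.58 in fetuses, a difference of -2.47, beside an estimated SD of 0.49 for the difference. This difference was likewise not tested, and the fetal aorta signal lay close to the floor. On the second Acsl1 probe set above the floor throughout, fetal ductus and fetal aorta were nearly level. The fetal side of the reversal thus rests on the brightest probe set, and with probe set means it was log2 0.31.

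The 5 probe sets assigned to Cd36 and Cd36l1 together lay outside the counts. Newborn aorta was 2.94-fold, 3.51-fold, 3.87-fold, 4.32-fold and 6.56-fold above fetal aorta on them. Which of the 2 genes they read cannot be told apart.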

How the results depend on the processing

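Other floors, probe set means, quantile normalization and median centring gave 30 alternatives of the medians over the 10 genes. Each median moved by less than 0.32, the median SD estimated for the log2 ratio of a single probe set. That is not the scatter of a median over genes, so it cannot settle the sign of the smaller medians. The median of oxygen over fetal ductus was -0.04 with the floor at the 25th percentile, against 0.10. With the floor at the 60th percentile, genes at least 1.5-fold lower numbered 3 for newborn ductus over newborn aorta, against 5, and 1 for newborn over fetal ductus, against 3. In newborn over oxygen ductus they numbered 1 with that floor and 3 with quantile normalization, against 2. They numbered 4 in newborn over fetal ductus and 1 in oxygen over fetal ductus (against 0) with the 25th percentile floor, and 6 in newborn ductus over newborn aorta with probe set means. Of 274 single-gene alternatives 21 moved beyond the scatter: 9 under the higher floor, 5 under the lower and 7 with probe set means, 0 under the scalings. Newborn ductus over newborn aorta was -1.69 and -0.45 for Cpt2, and -3.39 and -0.72 for Cd36, with the lower and higher floor, and Acadvl was -0.52 with the higher, under 1.5-fold. With probe set means, Cpt1b was -1.12 in that pair and 1.02 in newborn over fetal aorta, where Acadl was 0.53, under 1.5-fold, and Acsl1 1.48. Hadha in newborn over fetal ductus was 0.0099 with probe set means, against -0.26. The limma fits called 0 members under each of 6 alternatives. Over all probe sets they called 0 to 65 for vessel, against 5, and 0 to 532 for birth, against 233. The lowest adjusted p of a member was 0.0738 for birth, with an intensity trend. The cause of these shifts was not tested, beyond the floor itself bounding dim signals. No paired analysis was possible because each state had 1 array, and for the same reason no array could be left out.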
